A study of Mus musculus with 118 samples.

Results

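The Hox genes of the 4 mammalian clusters were examined in untreated mouse embryonic stem cells (ESCs), to record where 3 Polycomb proteins sat over them and where that occupancy began, ended and broke. The members were 38 listed genes, 10 of HoxA, 10 of HoxB, 9 of HoxC and 9 of HoxD, out of 21000 protein-coding genes with a curated RefSeq transcription start site (TSS). For each member, the TSSs on mm10 were widened by 2500 bp on each side to give a promoter window, and peaks were recorded if they shared at least 1 bp with it. The values were 3 deposited lists of peaks. They came from calibrated ChIP-seq, an assay where human HEK293T cells are added to the mouse cells as an internal standard. The lists are for RING1B, the ubiquitin ligase subunit of Polycomb repressive complex 1 (PRC1), for SUZ12, a core subunit of PRC2, and for PCGF2, a subunit of the canonical form of PRC1.

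Peaks of all 3 lists were called in E14-derived ESCs that had received no tamoxifen. PRC1CPM cells, a single clone, carry Ring1a with I50A/D53K on both alleles, Ring1b alleles that switch from wild type to I53A/D56K when Cre acts, and Rosa26::ERT2-Cre. PRC1CKO cells, also a single clone, have the genotype Ring1a-/-, Ring1b fl/fl with Rosa26::ERT2-Cre. RING1A was thus mutated or missing in all of these cells, while RING1B was still wild type in them. The labels name 3 untreated PRC1CPM samples for each protein and a further 3 of untreated PRC1CKO for SUZ12, among 118 samples in 42 groups. The RING1B and SUZ12 lists hold peaks found in both lines, and the PCGF2 list holds peaks found in every PRC1CPM replicate. RING1B peaks without a significant loss in tamoxifen-treated PRC1CKO cells had also been dropped. The protein and the way its list was built thus cannot be told apart. Each list gives positions only, with no height and no value per replicate, so no error or test was possible and the read depth behind a peak is unknown. All comparisons below are descriptions.

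Hox genes encode homeodomain transcription factors that give segments of the embryo their identity along the head-to-tail axis. Within a cluster the genes are transcribed in a common direction and are numbered by paralogue group, from 13 at the 5′ end, used in posterior tissues, to 1 at the 3′ end, used in the hindbrain. PRC2 methylates histone H3 and PRC1 ubiquitylates histone H2A, and together they keep Hox genes silent in cells where these are not in use, ESCs included. Whether the genes were silent here was not measured, since the lists give binding and not expression.

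All 38 Hox genes had a peak of each of the 3 lists at a promoter. Among protein-coding genes this was so of 58.5% for RING1B, 27.2% for SUZ12, 14.5% for PCGF2 and 14.5% for all 3 lists. The extent of the peaks set the members further apart from that background than their presence did. Neighbouring members shared peaks, so the counts of members are not counts of independent cases. Their TSSs lay under 7 RING1B, 6 SUZ12 and 10 PCGF2 peaks. The whole promoter window lay under RING1B at 37 members, under SUZ12 at 37 and under PCGF2 at 36, against 4.42%, 5.09% and 1.80% of protein-coding genes. The TSS itself lay under RING1B at 37 members, under SUZ12 at 37 and under PCGF2 at 38, against 54.0%, 20.8% and 13.1%. The annotated gene from end to end lay under RING1B at 37 members, under SUZ12 at 37 and under PCGF2 at 35, against 2.63%, 2.05% and 1.30%. This comparison was not matched for gene length, and a short gene is more easily covered whole. The members ran from 1784 bp (Hoxc12) to 44009 bp (Hoxa3). The members short of full cover were Hoxc5, Hoxd4 and Hoxd1 for promoter windows, and Hoxc5, Hoxd3, Hoxc4 and Hoxd1 for gene bodies, each in some lists only.

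**Figure D1:**
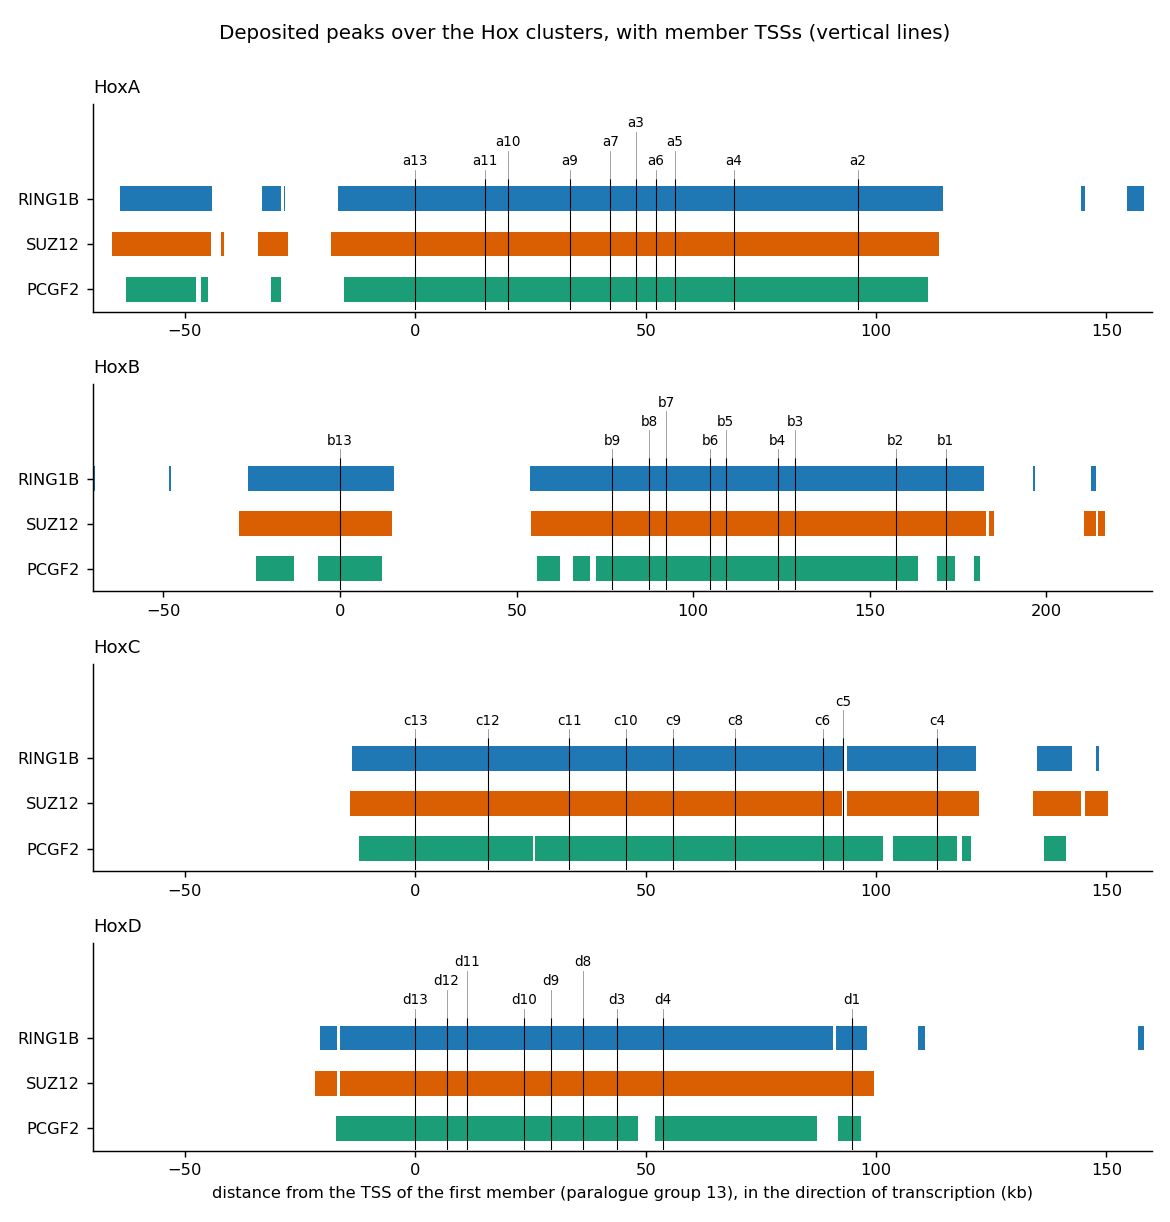
Peaks of the 3 lists (coloured bars) over the 4 clusters, with the x axis giving the distance in kb from the TSS of the paralogue group 13 member in the direction of transcription and vertical lines marking the 5′-most TSS of each member. HoxA lay under an unbroken peak in each list, HoxB was in separate domains for Hoxb13 and for Hoxb9 to Hoxb1, and PCGF2 was in more pieces than the other lists over HoxB, HoxC and HoxD.

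The widest peaks of each list lay over the clusters, which held ranks 1 to 4 by width in all 3 lists. Over the spans from the outermost member TSS to the other outermost TSS, with 2500 bp added at each end, there were 7 RING1B peaks, 6 SUZ12 peaks and 12 PCGF2 peaks. The median widths in the whole lists were 1495 bp, 2666 bp and 2588 bp. RING1B had 4 peaks of at least 100 kb in the genome and all 4 were at Hox clusters, and the same counts, 4 of 4, held for SUZ12. The single PCGF2 peak of that size was at HoxA. The 7 peaks over the spans made up 0.0375% of RING1B peaks and 1.25% of the sequence under RING1B. For SUZ12 the 6 peaks were 0.0807% of peaks and 1.92% of sequence, and for PCGF2 the 12 peaks were 0.326% of peaks and 3.41% of sequence. Peaks with the TSSs of at least 5 protein-coding genes were also rare. There were 6 such RING1B peaks, of which 4 were at Hox clusters, 7 SUZ12 peaks with 4 at Hox clusters, and 5 PCGF2 peaks with 4 at Hox clusters.

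**Figure D2:**
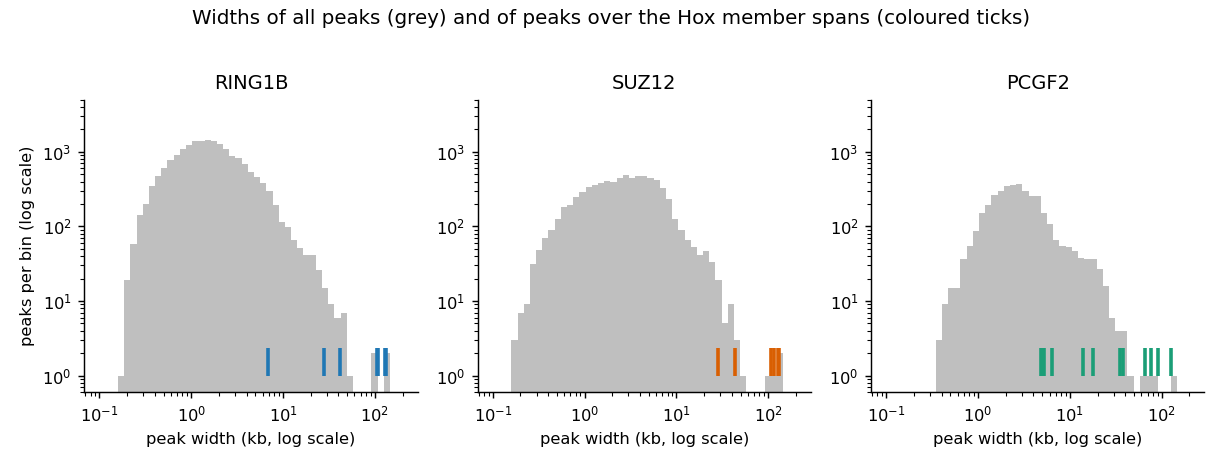
Number of peaks (y, log scale) by peak width in kb (x, log scale) for each list in grey, with coloured ticks for the peaks over the Hox member spans. The widest ticks stood at 131.4 kb for RING1B, 131.8 kb for SUZ12 and 126.8 kb for PCGF2, while the narrowest were 6.905 kb, 28.58 kb and 4.875 kb.

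HoxA, on chromosome 6, was the unbroken cluster. Its members in the order of transcription of their 5′-most curated TSSs were Hoxa13, Hoxa11, Hoxa10, Hoxa9, Hoxa7, Hoxa3, Hoxa6, Hoxa5, Hoxa4 and Hoxa2, with the curated Hoxa3 TSS lying upstream of Hoxa6. All 10 promoter windows and all 10 gene bodies were wholly under each of the 3 lists, and so was 100% of the 101 kb span. A single peak of 131.4 kb in the RING1B list, of 131.8 kb in the SUZ12 list and of 126.8 kb in the PCGF2 list held all 10 TSSs, and each ranked first by width in its list. Hoxa13, required for digits and the genital tract, has its TSS at position 52260880, and the peaks ended 16.75 kb (RING1B), 18.19 kb (SUZ12) and 15.49 kb (PCGF2) upstream of it. Hoxa2, which patterns the second pharyngeal arch, has its TSS at position 52164831, and the peaks ran on for 18.56 kb (RING1B), 17.54 kb (SUZ12) and 15.23 kb (PCGF2) downstream of it. The deepest TSS of any member was that of Hoxa3, at 64.56 kb from the nearest RING1B edge, 65.77 kb from the nearest SUZ12 edge and 63.3 kb from the nearest PCGF2 edge.

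HoxB, on chromosome 11, was split. Hoxb13, best known from the prostate and tail, stood alone with its TSS at position 96194316 and a distance of 77.01 kb to the next member, the longest of the 34 intervals between neighbouring members (median 11.42 kb). It had its own peaks, of 41.43 kb for RING1B (chr11:96168145-96209576), 43.2 kb for SUZ12 (chr11:96165808-96209011) and 18.01 kb for PCGF2 (chr11:96188083-96206091). No list had a peak between 96209577 and 96248165, a stretch of 38589 bp. The members Hoxb9, Hoxb8, Hoxb7, Hoxb6, Hoxb5, Hoxb4, Hoxb3, Hoxb2 and Hoxb1 then shared a RING1B peak of 128.6 kb (chr11:96248166-96376754) and a SUZ12 peak of 128.7 kb (chr11:96248509-96377171), each second in its list by width. PCGF2 held the 8 TSSs from Hoxb9 to Hoxb2 in a peak of 91.11 kb (chr11:96266829-96357939) and Hoxb1, a hindbrain gene, in a separate peak of 5.124 kb (chr11:96363208-96368331). All 10 HoxB windows and gene bodies were wholly under each list. The Hoxb1 TSS, at position 96365758, was nonetheless only 2.55 kb from a PCGF2 edge, against 11 kb from a RING1B edge and 11.41 kb from a SUZ12 edge.

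HoxC, on chromosome 15, held the member with a TSS outside a peak. Hoxc13, a gene of hair and nails, Hoxc12, Hoxc11, Hoxc10, Hoxc9, Hoxc8 and Hoxc6 shared a RING1B peak of 106.5 kb (chr15:102907430-103013921) and a SUZ12 peak of 106.9 kb (chr15:102906921-103013824). Hoxc4 lay in the next peak of each list, of 28.03 kb (chr15:103014747-103042775) and 28.58 kb (chr15:103014855-103043432). Hoxc5 fell between them. Its TSS, at position 103014008, was in a RING1B gap of 825 bp (chr15:103013922-103014746) and in a SUZ12 gap of 1030 bp (chr15:103013825-103014854), and 528 bp of each gap were exonic sequence of Hoxc5. RING1B covered 83.5% and SUZ12 79.4% of its promoter window, and 78.4% and 75.25% of the gene. PCGF2 was unbroken there, in a peak of 75.61 kb from Hoxc11 to Hoxc5 (chr15:102947050-103022663) that covered 100% of the window. Hoxc5 was the only member whose TSS lay outside a RING1B or SUZ12 peak. The traits counted next were those already seen at Hoxc5, so a small count was built in and is no measure of rarity. Of 438 pairs of neighbouring RING1B peaks less than 1 kb apart in the genome, 23 had a protein-coding TSS in the gap, and 7 gaps were wholly under PCGF2. Both held, with no SUZ12 in the gap, at 2 of them, Hoxc5 and Zbtb10, the latter named after its values were seen.

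Another of those 7 gaps lay beside HoxD, ending 16.24 kb upstream of the Hoxd13 TSS, at chr2:74651234-74651984. There SUZ12 also broke, leaving 22 bp of the gap covered, while PCGF2 ran across.

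HoxD, on chromosome 2, carried 8 of its members, Hoxd13, Hoxd12, Hoxd11, Hoxd10, Hoxd9, Hoxd8, Hoxd3 and Hoxd4, in a RING1B peak of 106.9 kb (chr2:74651985-74758844), and all 9 in a SUZ12 peak of 115.9 kb (chr2:74651963-74767858). Hoxd1, a gene of sensory neurons, with its TSS at position 74762980, was in a RING1B peak of its own of 6.905 kb (chr2:74759474-74766378). A RING1B gap of 629 bp, in an intron of the antisense RNA gene Haglr, separated the peaks, and SUZ12 covered 100% of it. PCGF2 was in 3 pieces, of 65.66 kb over Hoxd13 to Hoxd3 (chr2:74650912-74716574), 35.24 kb over Hoxd4 (chr2:74720197-74755434) and 5.156 kb over Hoxd1 (chr2:74759919-74765074). The promoter windows of Hoxd4, which acts in the hindbrain, and of Hoxd1 were 85.62% and 91.88% under PCGF2, and both were 100% under RING1B and SUZ12. The Hoxd4 TSS, at position 74721978, was 1.781 kb from a PCGF2 edge, nearer than any other member. Gene bodies not wholly under PCGF2 were those of Hoxd3 (90.02%), Hoxd1 (96.86%) and, in HoxC, Hoxc4 (88.85%).

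**Figure D3:**
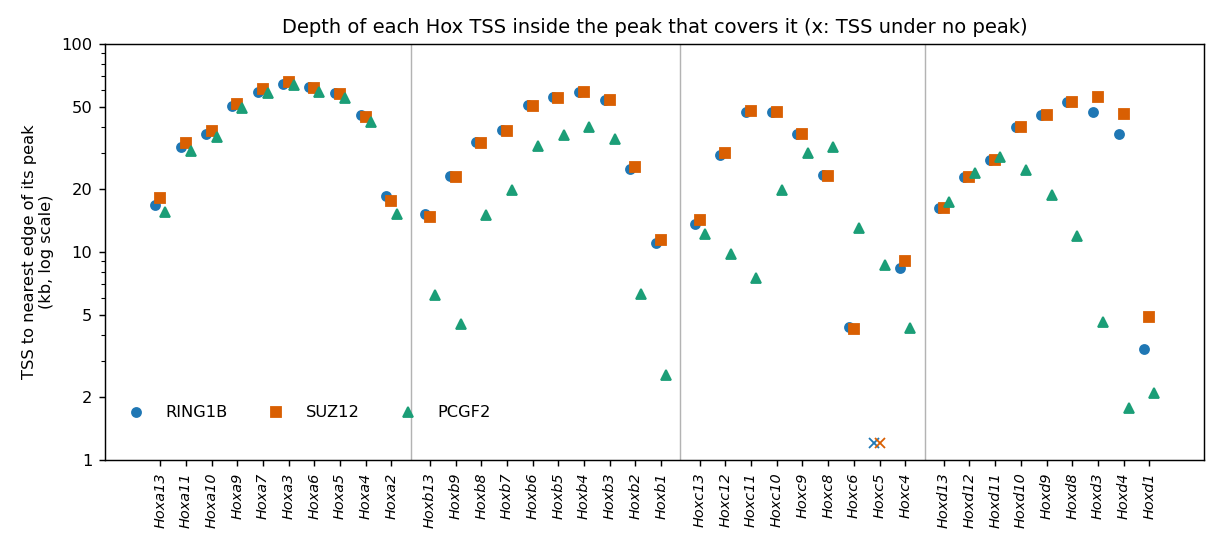
Distance from each member's 5′-most TSS to the nearest edge of the peak that covers it (y, kb, log scale), with members on the x axis in cluster order and 1 symbol for each list. HoxA members were 15.23 kb or more inside PCGF2, while Hoxd4, Hoxd1 and Hoxb1 were 1.781 kb, 2.094 kb and 2.55 kb inside it, and crosses mark Hoxc5, outside RING1B and SUZ12.

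Position in the cluster was described through paralogue groups. Group number does not always follow the order of the TSSs used, since that of Hoxa3 lies upstream of Hoxa6 and that of Hoxd3 upstream of Hoxd4. Hoxa3 gives the highest values in groups 1 to 4. The 11 members of groups 1 to 4 lay a median of 36.9 kb inside RING1B, 44.4 kb inside SUZ12 and 6.31 kb inside PCGF2. The 11 members of groups 5 to 8 lay a median of 51.8 kb, 51.6 kb and 32.1 kb inside, where the RING1B and SUZ12 values leave out Hoxc5. The 16 members of groups 9 to 13 lay 30.6 kb, 31.6 kb and 19.3 kb inside. PCGF2 values spread widely in every set, from 1.78 kb to 63.3 kb in groups 1 to 4, and the ranges of the sets overlap. Both windows short of full PCGF2 cover, those of Hoxd4 and Hoxd1, were among the 11 members of groups 1 to 4, and 0 were among the members of groups 5 to 13.

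**Figure D4:**
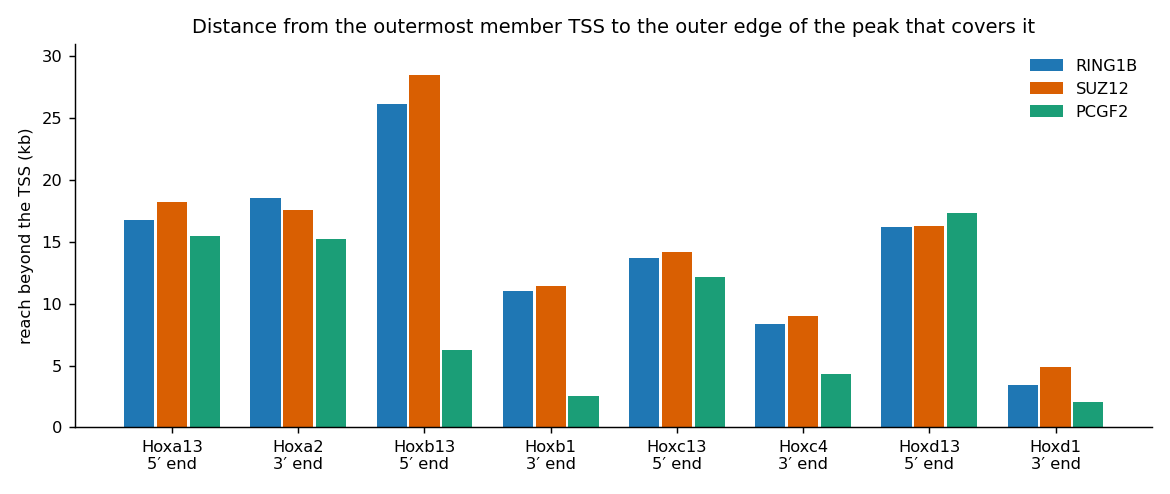
Reach in kb (y) beyond the TSS of the peak that covers each outermost listed member, away from the other members. Both ends of each member span are shown (x), with 1 bar for each list. SUZ12 reached farther than RING1B at 7 of 8 ends, all but Hoxa2. At Hoxd13, Hoxb1, Hoxc13 and Hoxc4 it did so by 0.657 kb or less, with no error known for an edge. PCGF2 fell short of RING1B at 7 of 8 ends, all but Hoxd13. Beyond Hoxd13 the PCGF2 edge lay inside a further RING1B peak, which the bars leave out.

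The outer edges of the peaks over the outermost listed members differed between lists. An end here is that of the listed members and need not be the end of the cluster. Reaches past the ends are thus not fully comparable between clusters. SUZ12 reached beyond RING1B at 7 of 8 ends, by 0.02 kb at Hoxd13 to 2.34 kb at Hoxb13. At Hoxd13, Hoxb1, Hoxc13 and Hoxc4 this was 0.657 kb or less, with no error known for an edge. At Hoxa2 SUZ12 ended 1.02 kb inside RING1B. The PCGF2 peak over the outermost member ended inside RING1B at 7 of 8 ends, by 1.26 kb at Hoxa13 to 19.9 kb at Hoxb13. At 3 of these ends a further PCGF2 peak lay inside the RING1B domain, nearer its edge. That beyond Hoxb13 (chr11:96170457-96181380) ended 2.31 kb inside the RING1B edge, in place of 19.9 kb. The one beyond Hoxb1 (chr11:96373855-96375385) ended 1.37 kb inside it, in place of 8.43 kb. The one beyond Hoxc4 (chr15:103039803-103041839) ended 0.936 kb inside it, in place of 4.08 kb. With these peaks counted, PCGF2 still ended inside RING1B at 7 of 8 ends, by 3.33 kb or less. At Hoxd13 PCGF2 reached 1.07 kb beyond the RING1B peak over the member. Further peaks were counted here for PCGF2 only. The next RING1B peak (chr2:74647642-74651233), 0.751 kb on, held the PCGF2 edge, so this exception rests on that short gap. Reach beyond the 3′-most member was shortest in HoxD, at 3.398 kb (RING1B), 4.878 kb (SUZ12) and 2.094 kb (PCGF2) past the Hoxd1 TSS, and the PCGF2 edge there fell inside the Hoxd1 gene. Upstream of the HoxC domain, the next RING1B peak was 153.5 kb away, the farthest at any of the 8 ends. At the other ends it was from 0.751 kb (Hoxd13) to 29.91 kb (Hoxa2) away. The 100 kb on each side of the spans, which take in the ends of the domains themselves, were less covered than the spans, at a mean over clusters of 20.27% for RING1B, 22.37% for SUZ12 and 12.64% for PCGF2, against 91.92%, 91.82% and 86.71% of the spans.

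Genes next to the clusters differed. Evx1 and Evx2 are homeobox genes that sit at the 5′ ends of HoxA and HoxD, and both had promoter windows wholly under all 3 lists. Evx2, 8.668 kb from Hoxd13, was inside the same peaks as Hoxd13 in each list, while Evx1, 52.62 kb from Hoxa13, had separate peaks of 19.97 kb (RING1B), 21.66 kb (SUZ12) and 15.19 kb (PCGF2). Ttll6, 60.53 kb from Hoxb13, had no peak of any list at a promoter, although the outer SUZ12 edge of the Hoxb13 domain fell inside the gene. Mtx2, 62.83 kb from Hoxd1, and Calcoco1, 199 kb from Hoxc13, had RING1B over 29.27% and 17.4% of the window and no SUZ12 or PCGF2. Smug1, 128.9 kb from Hoxc4, had RING1B over 44.31% and SUZ12 over 28.15% and no PCGF2. Skap1, 98.83 kb from Hoxb1, had all 3, over 82.46%, 85.18% and 16.88%.

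The clusters also hold 23 other genes with a curated TSS between the outermost members, 17 for long non-coding RNAs and 6 for microRNAs. These genes lie in spans that were 91.92% under RING1B, 91.82% under SUZ12 and 86.71% under PCGF2. Cover at most of them, microRNA genes included, thus follows from where they lie. A share over other non-coding genes was not computed. All 23 had all 3 lists at a promoter, with the whole window under RING1B at 22, under SUZ12 at 22 and under PCGF2 at 18. The exception for RING1B and SUZ12 was Mir615, whose hairpin at chr15:103014910-103015001 began 163 bp inside the RING1B peak and 55 bp inside the SUZ12 peak that follow the Hoxc5 gap. Hotair, a long non-coding RNA gene read antisense between Hoxc12 and Hoxc11, had 91.18% of its window under PCGF2, and a PCGF2 gap of 441 bp lay in an intron of it. Of the 6 microRNA hairpins, all 6 were wholly under RING1B and SUZ12 and 5 under PCGF2. The exception was Mir196a-1 (chr11:96265164-96265265), upstream of Hoxb9, which began 65 bp past the end of a PCGF2 peak. The mature sequences are printed because those of the miR-10 and miR-196 genes recur between clusters, with that of Mir615 beside them for its place next to the Hoxc5 gap, and with the seed, bases 2 to 8, in capitals (RefSeq, GRCm38.p6).
miR-10a-5p: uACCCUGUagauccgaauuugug
miR-10b-5p: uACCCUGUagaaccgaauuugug
miR-196a-5p: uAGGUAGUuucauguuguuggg
miR-196b-5p: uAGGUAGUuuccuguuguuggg
miR-615-3p: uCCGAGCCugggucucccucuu
miR-10a-5p from HoxB and miR-10b-5p from HoxD share the seed ACCCUGU. miR-196a-5p, encoded by Mir196a-1 in HoxB and Mir196a-2 in HoxC, and miR-196b-5p from HoxA share the seed AGGUAGU. The gene of miR-615-3p lies inside Hoxc5, and its seed is not shared with the others. The miR-10 and miR-196 families are known to target Hox messenger RNAs.

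Sequence at the members was not used to choose them. CpG observed/expected, which is near 1 where CpG dinucleotides are not depleted, had a median of 0.501 over the 38 promoter windows (quartiles 0.418 to 0.566), against 0.348 (0.212 to 0.462) over all protein-coding genes and 0.467 (0.385 to 0.562) over the 3000 other genes with all 3 lists at a promoter. With 500 bp on each side the medians were 0.676, 0.572 and 0.701, so that the members stood below the other genes with all 3 lists in the narrower window and above them in the wider one. In the wider window the members were above the median of all genes in 34 of 38 cases, the other 4 being Hoxd4, Hoxb1, Hoxb13 and Hoxc8. The highest value was that of Hoxd8 (0.801) and the lowest that of Hoxd4 (0.225), which also had the lowest share of its window under PCGF2. Repeats made up 18.2% of the spans and 29.9% of the 100 kb flanks.

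Upstream promoter sequence is printed for 3 members, of the 22 whose entry was found by symbol in the RefSeq table of build GRCm38.p6. Hoxa13 had the most CpGs of these 22, and Hoxd4 and Hoxd1 were the members with incomplete PCGF2 windows. Each run is the 250 bases before the 5′-most TSS, 5′ to 3′ on the gene's strand, with CpG dinucleotides in capitals.
Hoxa13 (chr6:52260881-52261130, minus strand): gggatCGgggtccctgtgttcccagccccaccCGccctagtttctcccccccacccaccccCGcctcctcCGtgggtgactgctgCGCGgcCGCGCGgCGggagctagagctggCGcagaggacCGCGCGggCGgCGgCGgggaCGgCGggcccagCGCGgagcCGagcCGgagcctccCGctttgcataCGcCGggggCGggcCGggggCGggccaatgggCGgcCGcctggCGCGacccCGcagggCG
Hoxd4 (chr2:74721728-74721977, plus strand): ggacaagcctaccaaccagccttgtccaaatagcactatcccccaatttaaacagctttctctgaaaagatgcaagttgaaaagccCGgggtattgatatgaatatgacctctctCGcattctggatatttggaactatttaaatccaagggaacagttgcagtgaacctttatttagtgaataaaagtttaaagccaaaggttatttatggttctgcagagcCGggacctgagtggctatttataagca
Hoxd1 (chr2:74762730-74762979, plus strand): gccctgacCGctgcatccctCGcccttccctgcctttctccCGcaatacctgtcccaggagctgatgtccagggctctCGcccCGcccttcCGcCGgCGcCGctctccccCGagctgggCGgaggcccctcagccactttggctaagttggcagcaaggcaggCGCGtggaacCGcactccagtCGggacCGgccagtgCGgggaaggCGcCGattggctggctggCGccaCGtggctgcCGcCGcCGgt
Hoxa13 had 35 CpGs in the 250 bases, and 97.6% of 27025 promoters in the table had as many or fewer. Hoxd1 had 24 (89.7%) and Hoxd4 had 3 (38.1%), so the CpG counts of the members with incomplete PCGF2 windows were unlike each other. The other 16 members, Hoxa4, Hoxb2, Hoxb3, Hoxb5, Hoxb6, Hoxb7, Hoxb9, Hoxb13, Hoxc5, Hoxc6, Hoxc8, Hoxc9, Hoxc10, Hoxc11, Hoxc12 and Hoxc13, were not matched.

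Gaps inside the spans were low in CpG beside the spans as a whole, except those at Hoxc5. CpG observed/expected was 0.401 over the 4 spans and 0.222 over their 100 kb flanks, so the flanks were low as well. PCGF2 had 8 gaps in the spans, of which 6 were wholly under both RING1B and SUZ12, and in all 8 CpG observed/expected was between 0 and 0.205. The gaps lay mostly between genes or in introns, and only that with Mir196a-1 held exonic sequence. They were, beside the stretch downstream of Hoxb13, 3682 bp, 1729 bp and 5268 bp in HoxB, 441 bp and 2091 bp in HoxC and 3622 bp and 4484 bp in HoxD. In 1 kb bins of the spans, the median was 0.375 (quartiles 0.203 to 0.549) over 419 bins wholly under PCGF2 and 0.121 (0.102 to 0.23) over 18 bins wholly under RING1B with no PCGF2. Repeats took a median of 13.5% and 24.2% of these bins. The sets overlap, since 55.4% of the bins under PCGF2 were no richer in CpG than the richest bin without it, at 0.41. The RING1B and SUZ12 gaps downstream of Hoxb13 had values of 0.203 and 0.201, and the RING1B gap between Hoxd4 and Hoxd1 had 0.106 with 74.4% repeats. The gaps at Hoxc5 were the exception, with CpG observed/expected of 0.742 in the RING1B gap and 0.704 in the SUZ12 gap and repeats at 5.7% and 8.64%. The middle 300 bases of the PCGF2 gap in Hotair are printed because that gap had the lowest CpG observed/expected of the 8, at 0, on the plus strand of mm10, read from GRCm38.p6, with CpGs in capitals.
HoxC gap in the PCGF2 list (chr15:102946680-102946979): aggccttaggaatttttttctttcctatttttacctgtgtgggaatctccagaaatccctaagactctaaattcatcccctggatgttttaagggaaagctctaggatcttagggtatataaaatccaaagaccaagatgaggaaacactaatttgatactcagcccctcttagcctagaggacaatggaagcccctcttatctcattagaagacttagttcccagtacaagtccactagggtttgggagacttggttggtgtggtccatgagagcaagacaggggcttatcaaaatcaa
The stretch had 0 CpGs, against 3 in the 250 bases before Hoxd4.

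**Figure D5:**
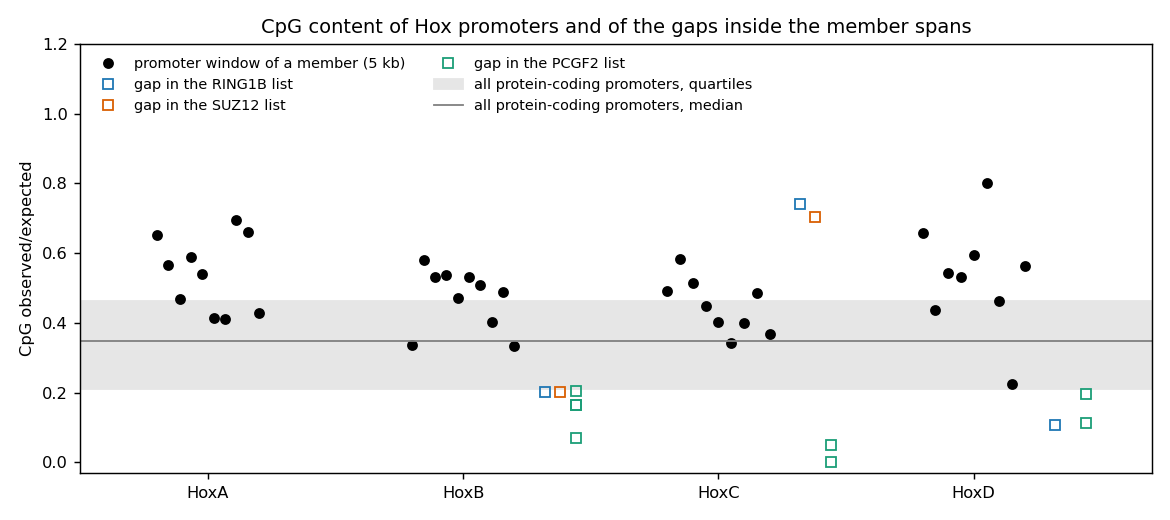
CpG observed/expected (y) of the promoter window of each member (black points, in cluster order) and of each gap between peaks inside the member spans (open squares, by list), with the median and quartiles over all protein-coding genes in grey. PCGF2 gaps lay at 0.205 or below and the other RING1B and SUZ12 gaps at 0.203 or below, while the RING1B and SUZ12 gaps at Hoxc5, in HoxC, lay at 0.742 and 0.704.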

How the data were processed

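Positions of RING1B, SUZ12 and PCGF2 peaks in untreated ESCs were analysed. The submitters' processing notes name Bowtie2, MACS2 and deepTools with mm10, hg19 and dm6. According to the methods, broad peaks were called against matched Input, and those overlapping the authors' own set of blacklisted regions were discarded. RING1B and SUZ12 peaks were called on merged replicates of each line and kept where both lines had them, RING1B peaks without a significant loss on tamoxifen in PRC1CKO cells were dropped, and PCGF2 peaks were kept where every replicate had them. The RING1B data in PRC1CKO cells are not among the 118 samples and entered here only through the RING1B list that they helped to define. The deposited values are peak starts and ends in bp, with no score, signal, p-value or count, so depth is unknown and no test was made.

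Starts were converted to count from 1. On GRCm38.p6 (mm10), 0 peaks passed the end of a chromosome and 0 overlapped a neighbour. TSSs were those of curated RefSeq transcripts. CpG observed/expected was the CpG count times the length over the product of C and G counts, as a mean over a gene's windows, and repeats were lower-case bases of the reference. Peak counts and covered lengths were tested on 4000 simulated windows, of which 0 were wrong. Named genes were set by rule: all members, the outermost and least covered ones in full, genes inside and next to the spans, Evx genes, cofactors, Cdx genes and stem cell markers. Members and lists were chosen with earlier results of these data known. Some items that this rule selects are not reported here. Alternatives changed the window, the TSS, the peaks kept or merged and the spans. Python 3.11.15, NumPy 2.4.6 and matplotlib 3.10.9 were used.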

Additional observations from a re-analysis of the deposited data

How the results depend on the processing

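Of 66 alternatives to 15 results, 60 were planned and 6 were chosen after seeing the data. By the rules set for them, 55 values stayed the same and 11 moved. Counts of peaks or members stayed if within 1.5 times the main count. Percentages and CpG medians stayed only if unchanged as rounded, so the split mixes unlike rules. All 39 alternatives for counts of members stayed within 1.5 times the count. That tolerance was loose, since the main counts were 36 to 38 of 38 members and could not pass it upward. Full windows fell to 35 (RING1B), 35 (SUZ12) and 32 (PCGF2) with 5000 bp on each side, and rose to 38 for RING1B with peaks merged over gaps of up to 1 kb and to 38 for PCGF2 with 1000 bp on each side. With peaks merged, the spans were 92.2% under RING1B and 86.8% under PCGF2. From TSS to TSS with nothing added, they were 91.6% (RING1B), 91.5% (SUZ12) and 86.2% (PCGF2), and repeats were 18.4%. With HoxB taken from Hoxb9, without Hoxb13, an alternative added after seeing the data, cover was 99.7%, 99.8% and 96.1%. The median CpG observed/expected was 0.676 with 500 bp on each side, then below the 0.701 of the other genes with all 3 lists, and 0.490 with the 5′-most TSS only. No paired analysis was possible because no value is given per replicate, and for the same reason no replicate could be left out. A peak edge has no error here, so offsets between lists cannot be set against a spread. Merging left 5 RING1B, 6 SUZ12 and 11 PCGF2 peaks over the spans.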

Other observations

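Partners and activators of Hox proteins were less evenly covered than the Hox genes. PBX, MEIS and PKNOX proteins bind DNA together with Hox proteins, and of the 8 such genes examined all 8 had RING1B, 6 SUZ12 and 4 PCGF2 at a promoter, against 58.5%, 27.2% and 14.5% of protein-coding genes, with all 3 at Pbx3, Meis1, Meis2 and Pknox2. Some overlaps were slight. RING1B covered 11.02% of the window at Pknox1, 13.88% at Meis3 and 16.08% at Pbx4, against 56.39% or more at the others. SUZ12 covered 7.858% at Meis3 and 11.94% at Pbx2, against 47.09% or more at the other genes that had it. Meis1 and Meis2 had windows wholly under each list, in RING1B peaks of 23658 bp and 22820 bp. CDX proteins activate Hox genes in the posterior embryo, and all 3 genes had all 3 lists. Cdx2 had its window wholly under each list, in a RING1B peak of 23026 bp, while Cdx4 had 59.45% under RING1B.

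Of 6 stem cell genes that ESCs are known to use, 4 had RING1B, 2 SUZ12 and 2 PCGF2 at a promoter, against the same 58.5%, 27.2% and 14.5% of all genes. Nanog and Zfp42 had none. Pou5f1 had RING1B over 72.61% of its window and neither SUZ12 nor PCGF2. Esrrb had RING1B over 97.46%, SUZ12 over 100% and PCGF2 over 70.11%, and Klf4 had 85.24%, 34.53% and 84.58%. Cell identity could not be checked from binding alone.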
